A study of Mus musculus with 4 samples.

Results

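Among the 24391 gene rows of the RNA-seq counts from WT and *Phf2* KO mouse embryonic fibroblasts (MEFs), 8 long noncoding RNAs were chosen by their gene symbols: *Malat1*, *Neat1*, *Gas5*, *Snhg1*, *Kcnq1ot1*, *Miat*, *Dnm3os* and *Pvt1*. All 8 had a row, and all 8 passed the filter on low counts that left 13668 genes for testing. Although chosen as abundant transcripts, they covered nearly the whole range of expression. By mean normalized count, *Malat1* ranked 17 and *Neat1* 127 among the genes tested, whereas *Snhg1* ranked 10522 and *Miat* 13652.

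The 4 libraries came from quiescent primary MEFs of E13.5 embryos, 2 of WT and 2 of *Phf2* KO. By the labels, all 4 were *Phf2* flox/flox, ERCre/+, so the WT cells too carried floxed alleles and CreERT2, a Cre recombinase expressed from the *Rosa26* locus and activated by 4-hydroxytamoxifen (4-OHT). Only the *Phf2* KO libraries are labelled with tamoxifen, while the treatment protocol, with 0.5 µM 4-OHT for 7 days, has the same wording for all 4, and the vehicle or medium of the WT cells is not named. Cre activity and 4-OHT therefore cannot be told apart from loss of *Phf2*. RNA was selected on oligo(dT) beads in 2 rounds, reads were single and 50 nt long, and between 21094743 and 26094268 reads were counted per library. Levels are given as normalized CPM, that is, reads scaled so that libraries of different depth can be compared, in which a count of 3, taken as the floor of detection, was worth between 0.116 and 0.145 CPM. *Phf2* itself had 3244 and 3680 reads in the WT libraries, against 1454 and 2158 reads in the *Phf2* KO libraries, in the order of replicates 1 and 2, which is kept for all pairs of values here. With a log2 fold change of -0.79 (standard error 0.14), the deleted gene itself missed the threshold of 0.1 (adjusted p = 0.999, edgeR's quasi-likelihood test), while DESeq2 called it (adjusted p = 0.00321), and its counts cover the whole gene, with exons that were not deleted. *Xist* was counted 10042 and 8336 times in the replicate 1 libraries and 3 and 12 times in the replicate 2 libraries, and the Y-linked *Ddx3y* 6 and 10 times against 1271 and 1295 times, so the replicate numbers also separated cells of different sex. The summed level of 16 macrophage markers was 4218 and 4670 CPM in replicate 1 and 900.1 and 1403 CPM in replicate 2 of WT and *Phf2* KO. Each of the 15 markers tested was higher in replicate 1 in both groups, where the share over all genes tested was 32.7%. *Cx3cr1*, a marker of some tissue macrophages, was the marker too low to test. Within both replicate numbers, 9 of the 15 were higher in *Phf2* KO and 0 lower, where the shares over all genes were 32.6% and 30.1%. Fibroblast markers summed to 76320 and 82090 CPM for WT, against 71550 and 69560 CPM for *Phf2* KO. Of 10, 5 had both *Phf2* KO libraries below both WT libraries and 0 above, where the shares over all genes were 18% and 15.5%. The part of these marker levels in the results on genotype was not tested.

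Long noncoding RNAs act as transcripts, without a protein product. *Malat1* and *Neat1* stay in the nucleus, in nuclear speckles and in paraspeckles, and *Neat1* is the scaffold on which paraspeckles form. *Gas5* and *Snhg1* are host transcripts from whose introns small nucleolar RNAs (snoRNAs), which guide the modification of ribosomal RNA, are released. *Kcnq1ot1* is expressed from the paternal allele of an imprinted domain, where it silences neighbouring genes in cis. *Miat* is best known from neurons and retina, *Dnm3os* is the precursor of 2 microRNAs in developing mesenchyme, and *Pvt1* lies beside *Myc*, a growth-promoting transcription factor.

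The 3′ ends of *Malat1* and *Neat1* are shown first, because the libraries were made from poly(A)-selected RNA while *Malat1* and the long form of *Neat1* end without a conventional poly(A) tail: RNase P cuts each upstream of a tRNA-like fold, and a triple helix protects the new end, which is encoded in the genome and rich in A. A short form of *Neat1*, from the same start, is polyadenylated in the usual way, and the counts do not part the forms. Both sequences below are written 5′ to 3′ from the reverse strand of chromosome 19 (NCBIM37, mm9), at chr19:5795922-5796080 for *Malat1* and chr19:5824648-5824812 for *Neat1*, and capitals mark runs of at least 9 bases that both share.
Malat1 3′ end: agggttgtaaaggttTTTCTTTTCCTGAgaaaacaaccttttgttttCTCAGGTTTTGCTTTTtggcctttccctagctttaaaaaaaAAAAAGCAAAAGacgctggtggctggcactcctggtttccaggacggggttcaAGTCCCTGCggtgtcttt
Neat1 3′ end: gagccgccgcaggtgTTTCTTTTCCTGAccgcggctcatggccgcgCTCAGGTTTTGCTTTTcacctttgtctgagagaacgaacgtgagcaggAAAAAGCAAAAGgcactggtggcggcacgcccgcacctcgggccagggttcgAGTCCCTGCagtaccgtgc
The 4 shared runs were 13, 16, 12 and 9 bases long and added up to 50 bases. The first 2 runs hold the T-rich stretches and the next holds the A-rich stretch of the triple helix. Both printed sequences continue past this A-rich stretch, and the run of 9 bases lies in that part, beyond the processed end. The annotated end lies 292 bases past the A-rich stretch in *Malat1* and 0 bases past it in *Neat1*. The annotated coordinates and length of *Malat1* used below therefore take in bases beyond the processed end. The longest run of A was 12 bases in *Malat1* and 5 bases in *Neat1*. How much of a transcript such a short A-rich end retains on oligo(dT) beads was not measured here, so their levels relative to polyadenylated RNAs are those of this preparation.

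*Malat1* was the most highly expressed of the 8. It is 1 exon block on the reverse strand of chromosome 19 (mm9), from 5795690 to 5802671. The WT libraries held 47307 and 96247 reads of it, the *Phf2* KO libraries 63900 and 123154 reads. In normalized CPM this was 1963 and 3709 for WT, against 3084 and 5123 for *Phf2* KO. The lower *Phf2* KO library lay between the 2 WT libraries, so the groups overlapped. In bulk RNA, more expressing cells and more RNA per cell cannot be told apart. The WT mean was 2836 ± 1235 (SD, n = 2) and the *Phf2* KO mean 4104 ± 1442 (SD, n = 2), a log2 fold change of 0.53 with a standard error of 0.40, which did not pass the test (unadjusted p = 0.246, adjusted p = 0.999, edgeR's quasi-likelihood test, adjusted by Benjamini-Hochberg over all 13668 genes). Within replicate 1, *Phf2* KO was 1.57-fold and within replicate 2 it was 1.38-fold the WT level. With each library left out in turn, the log2 fold change lay between 0.12 and 1.05.

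*Neat1*, also 1 exon block on the reverse strand, lies 22037 bp away, from 5824708 to 5845478. Its levels were 684 and 866 CPM for WT, against 762 and 947 CPM for *Phf2* KO, again with *Phf2* KO replicate 1 between the WT libraries. The log2 fold change was 0.14 (standard error 0.18), and it changed sign without *Phf2* KO replicate 2 (-0.02) and without WT replicate 1 (-0.0063). The ratio of *Malat1* to *Neat1* CPM, which does not depend on the scaling of libraries, was 2.87 and 4.28 for WT, against 4.05 and 5.41 for *Phf2* KO, and these ranges overlapped. *Malat1* alone made up 65.3% and 74.4% of the summed CPM of the 8 transcripts in WT, and 72.8% and 78.3% in *Phf2* KO.

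**Figure D1:**
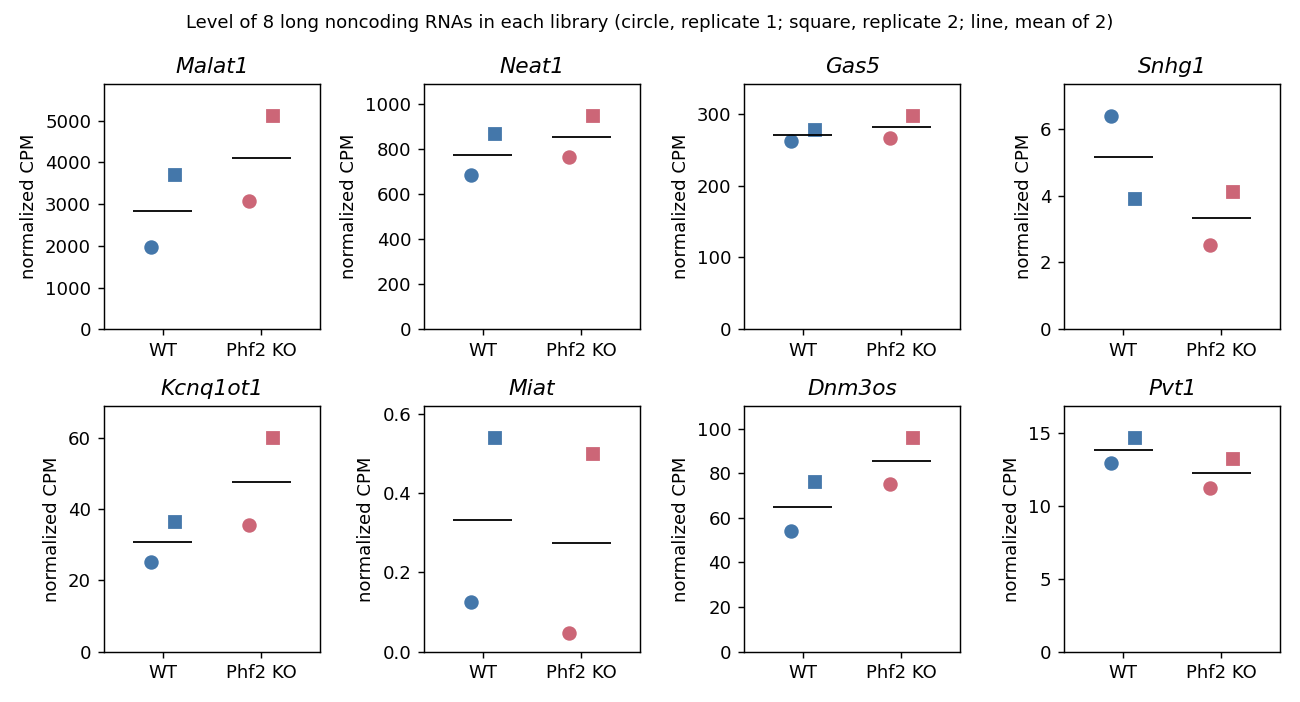
Normalized CPM (y axis, linear from 0, a different scale in each panel) of the 8 long noncoding RNAs in WT (blue) and *Phf2* KO (red) MEFs, with replicate 1 as circles, replicate 2 as squares and the mean of 2 libraries as a line. In each panel the ranges of WT and *Phf2* KO overlap, and squares lie above circles in both groups for all but *Snhg1*.

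The snoRNA hosts are shown by the first 30 bases of their transcripts, because transcripts of the translation machinery typically start with C followed by a pyrimidine tract, which couples their translation and stability to growth signals. The starts are those of RefSeq (GRCm38.p6, forward strand), at chr1:161035166-161035195 for the second of 2 *Gas5* start sites and chr19:8723487-8723516 for *Snhg1*, with the leading pyrimidines in capitals.
Gas5 start: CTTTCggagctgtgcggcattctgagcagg
Snhg1 start: CTCatttttccttgttcggggtaagtactc
*Gas5* started with 5 pyrimidines and *Snhg1* with 3, and of the other members *Dnm3os* started with 7, *Miat* with 6, *Malat1* with 1 and *Kcnq1ot1* with 0. The 7 of *Dnm3os* began with T and not with C. Of all 32544 RefSeq windows, 2.51% started with C and at least 5 pyrimidines in a row. The first *Gas5* start site had no leading pyrimidine.

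*Gas5* was the member with the most even levels. It lies on chromosome 1, from 162964553 to 162968670 on the forward strand, and its first part overlaps *Zbtb37* on the other strand. WT held 6321 and 7207 reads, *Phf2* KO held 5520 and 7151 reads, or 262 and 278 CPM against 266 and 297 CPM. Replicate 2 was 1.06-fold the level of replicate 1 for WT and 1.12-fold for *Phf2* KO, and the groups overlapped. The log2 fold change was 0.06 (standard error 0.10), and without *Phf2* KO replicate 2 it was -0.02.

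*Snhg1*, on chromosome 19 from 8797986 to 8800932 on the forward strand, was the only member whose replicates disagreed on direction. The reads were few: 154 and 101 for WT, against 52 and 99 for *Phf2* KO. These were 6.39 and 3.89 CPM for WT, against 2.51 and 4.12 CPM for *Phf2* KO, so that *Phf2* KO replicate 1 was the lowest library and *Phf2* KO replicate 2 lay between the WT libraries. Within replicate 1, *Phf2* KO was 0.393-fold the WT level, and within replicate 2 it was 1.06-fold. The fitted log2 fold change was -0.63 (unadjusted p = 0.163, standard error 0.38, by edgeR's quasi-likelihood test), and without WT replicate 1 it was -0.22.

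The annotation of mm9 places 8 snoRNAs in *Snhg1* and 9 in *Gas5*. Of these, *Snord22* in *Snhg1* and *Snord47* in *Gas5* had count rows of their own. *Snord22* had 51 and 73 reads for WT, against 55 and 91 for *Phf2* KO, with a log2 fold change of 0.39 (standard error 0.30), higher in *Phf2* KO within both replicate numbers while its host was not. *Snord47* was counted at most 9 times in any library and was not tested. Mature snoRNAs have no poly(A) tail, and how the authors' counting divided reads between a host and the snoRNA row inside it is not given in the sources used here, so the host counts are uncertain by at least the snoRNA reads.

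*Dnm3os* is shown by the microRNAs it carries. Both hairpins, *Mir199a-2* and *Mir214*, lie in its single exon block on chromosome 1, from 164147754 to 164155681 on the forward strand, within *Dnm3*, which encodes a dynamin GTPase and is transcribed from the other strand. Their mature sequences, from RefSeq, are given with the seed (bases 2 to 8), which pairs with target mRNAs, in capitals.
miR-199a-5p: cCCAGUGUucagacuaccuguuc
miR-199a-3p: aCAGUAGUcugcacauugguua
miR-214-5p: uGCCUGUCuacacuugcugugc
miR-214-3p: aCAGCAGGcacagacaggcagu
The 4 mature microRNAs had 4 different seeds. The rows of *Mir199a-2* and *Mir214* held 0 counts in all 4 libraries. How the authors' counting divided reads between the host and these rows inside it is not given, and the cause of the 0 counts was not tested. The libraries selected long polyadenylated RNA, so the data bear on the host only and the mature microRNAs were not measured.

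For *Dnm3os*, WT held 1304 and 1973 reads and *Phf2* KO held 1555 and 2303 reads. The levels were 54.1 and 76.0 CPM for WT, against 75.0 and 95.8 CPM for *Phf2* KO. *Phf2* KO replicate 1 lay just under WT replicate 2, and this alone made the groups overlap. The log2 fold change was 0.39 (unadjusted p = 0.130, standard error 0.21, by edgeR's quasi-likelihood test). Within replicates 1 and 2, *Phf2* KO was 1.39-fold and 1.26-fold the WT level. On the opposite strand, *Dnm3* had 230 and 212 reads for WT, against 133 and 116 for *Phf2* KO, with both *Phf2* KO libraries below both WT libraries, a log2 fold change of -0.66 (standard error 0.22) and an unadjusted p of 0.0323 by edgeR's quasi-likelihood test (adjusted p = 0.999). Alignment was reverse stranded, but whether the counting used strand is not given in the sources used here, and reads of the 2 transcripts may not be fully separated where they overlap. The *Dnm3os* promoter is shown because a CArG box, the site of serum response factor in promoters of mesenchymal genes, stands 33 bases before its start. In the 300 bases around the RefSeq start (GRCm38.p6, chr1:162217373-162217672, forward strand), capitals mark this match.
Dnm3os promoter: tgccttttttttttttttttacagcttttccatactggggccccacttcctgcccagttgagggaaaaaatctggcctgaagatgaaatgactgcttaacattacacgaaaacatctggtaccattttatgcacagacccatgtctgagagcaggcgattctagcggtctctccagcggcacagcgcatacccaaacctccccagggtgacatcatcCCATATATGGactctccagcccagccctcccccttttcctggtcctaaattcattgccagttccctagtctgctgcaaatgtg
The letters searched, CCATATATGG, which read the same on both strands, were present in 25 of 32544 RefSeq windows of this length, or 0.0768%. They were chosen after the sequence had been seen and are only 1 form of the CArG box. The share is therefore that of these exact letters, and how often any CArG box occurs was not counted. A match of letters does not show that a factor was bound.

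*Kcnq1ot1*, at 0.63, and *Snhg1*, at -0.63, had fitted log2 fold changes of nearly the same size, and which was the larger depended on the scaling and filter. For *Kcnq1ot1*, WT held 608 and 946 reads, *Phf2* KO held 737 and 1442 reads, or 25.2 and 36.5 CPM against 35.6 and 59.99 CPM. *Phf2* KO replicate 2 was the highest library by far, and *Phf2* KO replicate 1 lay just under WT replicate 2, so the groups overlapped. The log2 fold change was 0.63 (unadjusted p = 0.108, standard error 0.32, by edgeR's quasi-likelihood test), and it lay between 0.21 and 0.96 with each library left out in turn. Within replicates 1 and 2, *Phf2* KO was 1.41-fold and 1.65-fold the WT level. The mm9 annotation holds no gene of this name, and the RefSeq start site matched position 150482452 of chromosome 7 on the reverse strand, inside *Kcnq1* but in none of its exons.

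The other genes of the *Kcnq1* imprinted domain were listed as 16, of which 11 could be tested. Of these, 0 passed the test, 5 had a positive and 6 a negative log2 fold change, and the median was -0.02. *Kcnq1* itself, within which *Kcnq1ot1* starts, was counted 2, 2, 2 and 0 times, all under the floor of 3 counts. *Cdkn1c*, a maternally expressed inhibitor of cyclin-dependent kinases that *Kcnq1ot1* silences in cis, had 8570 and 9080 reads for WT, against 7061 and 7316 for *Phf2* KO. Its 2 *Phf2* KO libraries lay below both WT libraries, with a log2 fold change of -0.13 (standard error 0.10). *Cd81*, a tetraspanin gene at the edge of the domain, had a log2 fold change of 0.04 (standard error 0.10).

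*Pvt1* lies on the forward strand of chromosome 15 (mm9), from 61869542 to 62209651, in 14 exon blocks. WT held 312 and 380 reads of it, *Phf2* KO held 233 and 318. At 12.9 and 14.6 CPM for WT, against 11.2 and 13.2 CPM for *Phf2* KO, the groups overlapped in a narrow range, and the log2 fold change was -0.17 (standard error 0.16). *Myc*, 47613 bp away, had 1080 and 1002 reads for WT, against 744 and 680 for *Phf2* KO. Both *Phf2* KO libraries lay below both WT libraries for *Myc*, with a log2 fold change of -0.38 (standard error 0.16), which did not pass the test (unadjusted p = 0.0695, edgeR's quasi-likelihood test).

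*Miat*, on chromosome 5 from 112642248 to 112657968 on the reverse strand, was close to undetected. There were 3 and 14 reads for WT, against 1 and 12 for *Phf2* KO, so both replicate 1 libraries were at or under the floor of 3 counts. A difference between WT and *Phf2* KO was not detectable at this depth: the log2 fold change of -0.24 had a standard error of 1.14, and it lay between -2.67 and 1.14 with each library left out in turn, turning positive without *Phf2* KO replicate 1 or WT replicate 2.

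Read together, none of the 8 passed the test, with an adjusted p of 0.999 for each (edgeR's quasi-likelihood test, Benjamini-Hochberg adjustment over all genes). Among all genes tested, 0% were called higher and 0.00732% called lower. These calls depended on the replicate number: with it as a block in the fit, *Malat1*, *Kcnq1ot1* and *Dnm3os* were called higher and *Snhg1* lower, where 5.77% of all genes were called higher and 5.2% lower. No pairing of the numbers is stated by the labels, and such a fit leaves 1 residual degree of freedom. Its calls therefore rest on a spread pooled over genes, not on each gene's own spread between pairs. None of the 8 had both *Phf2* KO libraries above both WT libraries, against 15.5% of all genes, and none had both below, against 18% of all genes. Within both replicate numbers, *Phf2* KO was above WT for 5 members (*Malat1*, *Neat1*, *Gas5*, *Kcnq1ot1*, *Dnm3os*), where the share over all genes was 32.6%. It was below WT for *Miat* and *Pvt1*, where the share was 30.1%. By the same measure, 9 of 14 other snoRNA host genes tested were above and 2 below. Of 26 other long noncoding RNAs tested, 13 were above and 6 below. The members' median log2 fold change was 0.10, and that of all genes 0.01. The members' median ranged from -0.0217 without *Phf2* KO replicate 2 to 0.475 without WT replicate 2, so its size and sign depended on single libraries. By size, a larger absolute log2 fold change was fitted for 4.59% of all genes in the case of *Kcnq1ot1*, 4.66% for *Snhg1*, 6.37% for *Malat1* and 11.5% for *Dnm3os*. For *Gas5*, 72.1% of all genes had a larger one.

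**Figure D2:**
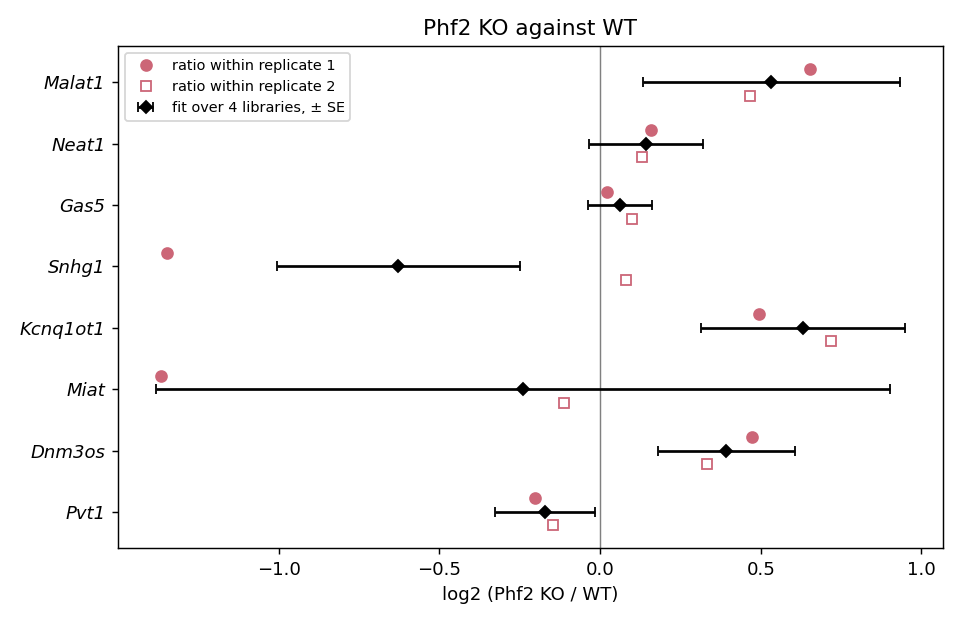
Log2 ratio of *Phf2* KO to WT (x axis) for each long noncoding RNA, as fitted over 4 libraries with its standard error (diamonds) and as the ratio within replicate 1 (filled circles) and replicate 2 (open squares). *Kcnq1ot1* at 0.63 and *Malat1* at 0.53 lie farthest to the right, and the within-replicate ratios of *Snhg1* lie on either side of 0.

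The members also differed between the replicates of a group. Replicate 2 was above replicate 1 in both groups for 7 of the 8, where the share over all genes was 35.8%. Replicate 1 was above replicate 2 in both groups for none, where it was 32.7%. This lean was not particular to the members. Of 14 other snoRNA host genes tested, replicate 2 was above in both groups for 10 and below for 0. Of 26 other long noncoding RNAs tested, it was above for 17 and below for 6. For *Malat1*, the replicate 2 level was 1.89-fold that of replicate 1 for WT and 1.66-fold for *Phf2* KO. For *Kcnq1ot1* these ratios were 1.45 and 1.69. *Dnm3os* gave 1.41 and 1.28, *Neat1* 1.27 and 1.24, *Pvt1* 1.13 and 1.18, and *Gas5* 1.06 and 1.12. *Snhg1* again differed, with 0.609 in WT and 1.64 in *Phf2* KO. Over the members the median log2 ratio of replicate 2 to replicate 1 was 0.42 in WT and 0.53 in *Phf2* KO. Over the other snoRNA hosts this median was 0.262 and 0.328, and over the other long noncoding RNAs 0.146 and 0.265. Over all genes it was 0.02 and 0.00126. The sex of the cells and the macrophage marker level differed along the same line, with *Xist* and the macrophage markers high in replicate 1, and their part in the members' levels was not tested.

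**Figure D3:**
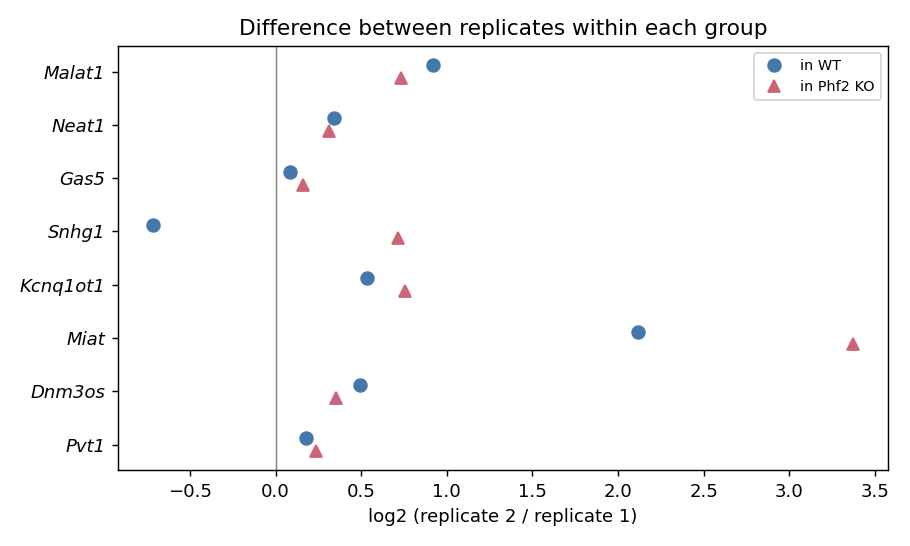
Log2 ratio of replicate 2 to replicate 1 (x axis) for each long noncoding RNA in WT (circles) and in *Phf2* KO (triangles), 1 library of each number per group. All points lie to the right of 0 except *Snhg1* in WT, and *Malat1* was 1.89-fold higher in replicate 2 in WT and 1.66-fold in *Phf2* KO.

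Levels were compared between transcripts per kilobase of exon in the mm9 annotation, with which the authors' gene models may differ. *Malat1* was highest, at 281 to 734 CPM per kb over the 4 libraries. *Gas5* was second at 69.8 to 79.1 CPM per kb and *Neat1* next at 32.9 to 45.6 CPM per kb, which reversed their order in CPM, since the exon block of *Neat1* is 20.8 kb and that of *Gas5* 3.76 kb long. This order rests on the long form of *Neat1*: over the second longest annotated transcript, of 3004 bases, its level was 228 to 315 CPM per kb, above *Gas5* and overlapping the range of *Malat1*. *Dnm3os* followed at 6.82 to 12.1 CPM per kb. *Pvt1*, at 2.01 to 2.62 CPM per kb, and *Snhg1*, at 0.852 to 2.17 CPM per kb, were neighbours whose ranges overlapped, although *Pvt1* was the higher in each library. *Miat* was lowest, at 0.00551 to 0.0616 CPM per kb. By merged exon length, the ranges of all other neighbours in this order were separate. The exon blocks of *Snhg1* and *Neat1* cover their whole spans, whereas those of *Pvt1* make up 5.6 of 340.1 kb. Those of *Gas5*, merged over 25 annotated transcripts, make up 3.76 of 4.118 kb. The blocks of *Gas5* and *Snhg1* hold all 9 and all 8 of their annotated snoRNAs, which are released from introns, so the merged lengths take in intron sequence. Over a shorter spliced length both would stand higher per kb, and their places in this order rest on the merged length. *Kcnq1ot1* had no exon length in the annotation and was not placed.

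**Figure D4:**
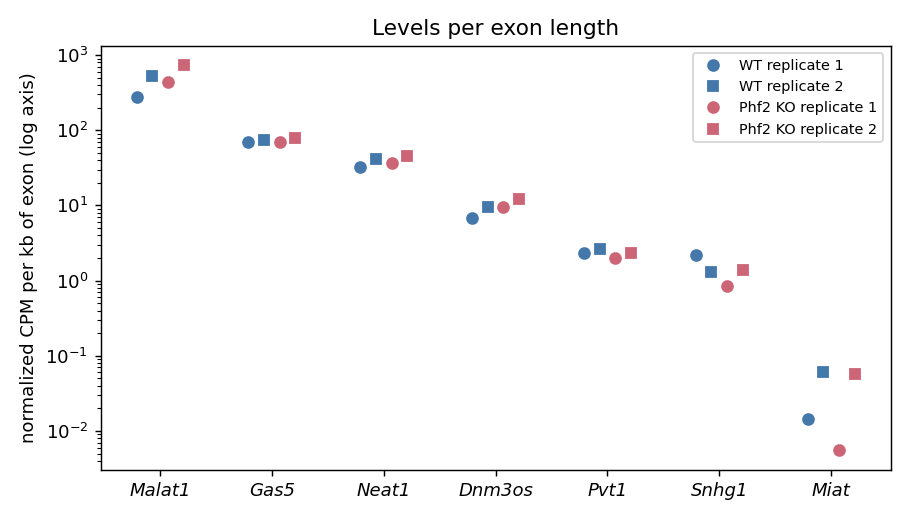
Normalized CPM per kb of exon (y axis, log axis) of the 7 long noncoding RNAs with an annotated length, with 4 libraries as separate points. *Malat1* lies between 281 and 734 and *Miat* between 0.00551 and 0.0616, and the ranges of *Pvt1* and *Snhg1* overlap.

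The tested gene with the most similar profile over the 4 libraries was found for the members other than *Pvt1*, by the root mean square difference of centred log2 CPM among genes with a mean of at least 10 CPM. For *Malat1* this was *Bmp4*, which encodes a bone morphogenetic protein, at 147.9 and 272.1 CPM for WT, against 228.3 and 387.2 CPM for *Phf2* KO, with a difference of 0.018. *Kcnq1ot1* was closest to *Mirg*, a noncoding RNA of another imprinted domain, with a difference of 0.0743. For *Dnm3os* it was *Chfr* (0.0202), for *Neat1* *Zfp523* (0.0109) and for *Gas5* *Mpv17l2* (0.0036). *Snhg1* (0.163, *Akr1c14*) and *Miat* (0.572, *Dclk2*) had no gene as close. Over 4 libraries, such likeness describes these profiles only.

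Within 100 kb of the members placed on mm9, 45 genes besides the members themselves had a row, and 33 could be tested. Of the 33, 0 passed the test, 18 had a positive and 15 a negative log2 fold change, and the median was 0.05. Both *Phf2* KO libraries were above both WT libraries for 6 of them, against the 15.5% given above, and below for 5, against 18%. Those above included *Cdc42ep2* near *Neat1*, *Fam89b* near *Malat1* and *Neat1*, and *Taf6l*, *Polr2g* and *Zbtb3* near *Snhg1*, with log2 fold changes between 0.11 and 0.20. Those below were *Dpf2* near *Malat1* and *Neat1* (-0.10), *Zbtb37* antisense to *Gas5* (-0.20), *Tmem179b* near *Snhg1* (-0.26), *Dnm3* and *Myc*. *Frmd8*, 4224 bp from *Neat1*, had a log2 fold change of 0.06 (standard error 0.10). *Slc3a2*, which lies 127 bp from *Snhg1* on the other strand and encodes an amino acid transporter subunit, had one of -0.06 (standard error 0.12).

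**Figure D5:**
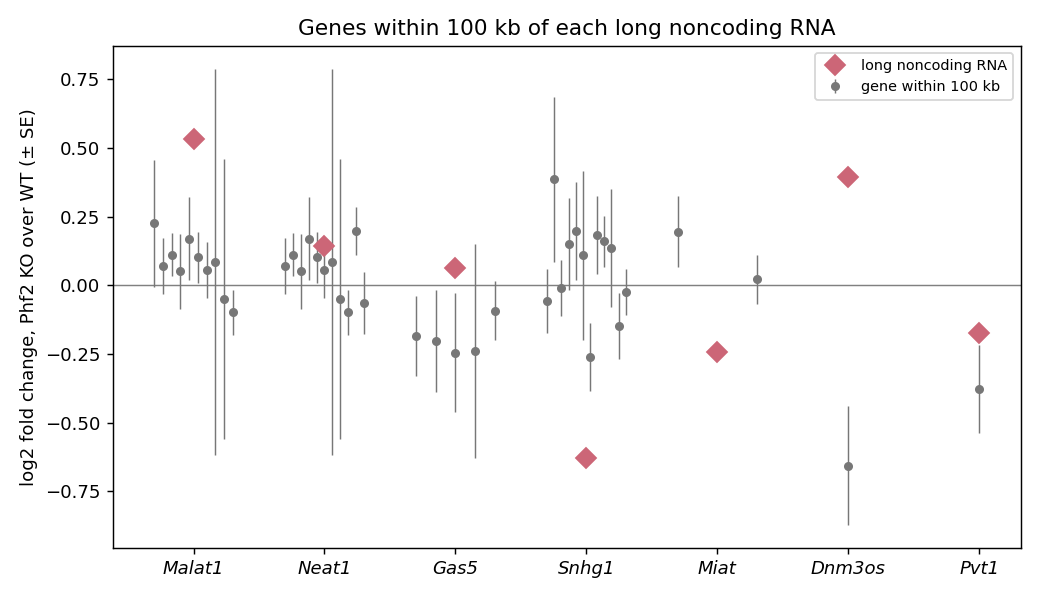
Log2 fold change of *Phf2* KO over WT (y axis, with standard error) of tested genes within 100 kb (grey points) of the long noncoding RNAs (red diamonds). *Kcnq1ot1* had no tested gene within this distance and is not drawn. *Malat1* at 0.53 lies above the estimates of its neighbours, and *Dnm3os* at 0.39 and *Dnm3* at -0.66 lie on opposite sides of 0.

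Other noncoding and partner genes were read from lists. Of 38 other named long noncoding RNAs with a row, 26 were tested and 0 passed, with 17 positive and 9 negative log2 fold changes. Their median was 0.05, and it lay between -0.0399 and 0.198 with each library left out in turn. *Meg3*, an imprinted transcript, had 45374 and 72511 reads for WT, against 46393 and 92496 for *Phf2* KO, with a log2 fold change of 0.38 (standard error 0.33). *H19*, another imprinted transcript, had 28879 and 30150 reads for WT, against 21018 and 23518 for *Phf2* KO. Both *Phf2* KO libraries lay below both WT libraries for *H19*, where the log2 fold change of -0.24 did not pass the test (standard error 0.10).

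Of 15 other snoRNA host genes, 14 were tested and 0 passed, with 10 positive and 4 negative log2 fold changes and a median of 0.14, which ranged from 0.00292 without *Phf2* KO replicate 2 to 0.346 without *Phf2* KO replicate 1. The most highly expressed were *Snhg18* (log2 fold change 0.32, standard error 0.15), with both *Phf2* KO libraries above both WT libraries, and *Snhg12* (-0.42, standard error 0.14), with both below. The 10 snoRNP protein genes, whose products assemble on snoRNAs, included 0 that passed, 6 positive and 4 negative, with a median of 0.01; *Nolc1* had a log2 fold change of -0.05 and *Nop56* one of 0.04.

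Of 20 genes for paraspeckle proteins, which bind *Neat1*, 19 were tested and 0 passed, with 11 positive and 8 negative log2 fold changes and a median of 0.03. *Smarca4*, which encodes a chromatin remodelling ATPase, had a log2 fold change of 0.01 (standard error 0.09). Of 20 genes for nuclear speckle and SR proteins, among which *Malat1* resides, 0 passed, 16 were positive and 4 negative, and the median was 0.07. *Srrm2* and *Son*, which build the core of speckles, had log2 fold changes of 0.03 and -0.01, the latter turning positive (0.000182) when the size factors of DESeq2 (RLE) replaced TMM scaling. Of 12 nonsense-mediated decay factors, which degrade spliced *Gas5*, 0 passed, 8 were positive and 4 negative, and the median was 0.04, with *Upf1* at 0.08 and *Smg5* at 0.05. Over all genes tested, 7003 had a positive and 6665 a negative log2 fold change.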

How the data were processed

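Libraries were grouped by the labels. Per the paper's methods, the authors used Trim Galore for trimming, bowtie2 against ribosomal RNA, STAR for alignment to mm9 and featureCounts for counting. Versions, annotation release and handling of overlapping genes are not given in the sources used here. The deposited counts are whole reads per gene, unnormalized. The authors' table of DESeq2 comparisons was not used.

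Counts were tested in R 4.3.3 with edgeR 4.0.16 (filterByExpr, TMM, genotype only, glmQLFit and glmQLFTest) and a threshold of 0.1 on the Benjamini-Hochberg adjusted p-value. A standard error is the log2 fold change over the root of F. DESeq2 1.42.0, limma 3.58.1 (voom), other scaling and filters, a replicate block and leaving out each library were alternatives. Scripts were tested on simulated data. The simulation held no difference between replicate numbers, so it does not show how the tests behave where there is one. Coordinates came from an NCBIM37 annotation, and start sites and microRNAs from RefSeq (GRCm38.p6), which had promoter windows for 6 of the 8 members. Members and lists were chosen with earlier results of these data known. Named genes are the members, *Phf2*, the sex markers *Xist* and *Ddx3y*, in each list called genes or else the 2 most abundant, genes within 100 kb (those whose groups did not overlap and a few closest), and the gene of nearest profile. *Cx3cr1*, *Kcnq1* and the small RNAs inside members were named after their values were seen. Replicates 1 and 2 differ in sex markers, so they are not repeats of 1 culture, and p-values measure a spread that includes this difference. Ranges over libraries take in this and any other difference between libraries as well as counting error, and floors cover counting error only. A few genes that the rule names are not reported here.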

Additional observations from a re-analysis of the deposited data

Results flagged for a closer look

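*Snhg1* was singled out because its log2 ratio of *Phf2* KO to WT had opposite signs in the 2 replicate numbers, at -1.35 within replicate 1 and 0.0814 within replicate 2. With 1 library of each group per number, the difference between these ratios was not tested. They rest on 154 and 52 reads in replicate 1 and on 101 and 99 reads in replicate 2.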

How the results depend on the processing

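For the 8 members, 7 alternatives (DESeq2, limma-voom, RLE or library size alone for scaling, 2 other filters and a threshold of 0.05) gave 55 values, all with the direction and call reported. Of these, the 8 values at the threshold of 0.05 came from the main fit, so their agreement was fixed in advance. *Miat* was not tested under a minimum of 1 CPM in 2 libraries. The groups share replicate numbers, but the labels state no pairing. The ratio of replicate 2 to 1 in WT and in *Phf2* KO correlated across 12533 genes (Pearson's r = 0.821, genes are not independent). With the replicate number as a block (1 residual degree of freedom), 789 genes (5.77%) were higher and 711 (5.2%) lower, and 4 members passed: *Malat1* 0.56 (adjusted p = 0.000138), *Kcnq1ot1* 0.61 (7.84e-09), *Dnm3os* 0.40 (0.000111) and *Snhg1* -0.60 (0.0353, although its 2 pairs had opposite signs), by edgeR's quasi-likelihood test. *Phf2* passed too (adjusted p = 7.67e-19, edgeR's quasi-likelihood test). With 1 residual degree of freedom, these p-values rest on a spread pooled over genes, not on each gene's own spread between pairs. *Snhg1* had a standard error of 0.197 in this fit, although its log2 ratios were -1.35 and 0.0814 within the 2 pairs. The members' adjusted p-values in the unblocked alternatives lay between 0.773 and 1. *Neat1*, *Gas5*, *Miat* and *Pvt1* did not pass under the block. It called 5 of 26 other long noncoding RNAs, 5 of 14 snoRNA hosts, 3 paraspeckle genes, 2 speckle and SR genes, 2 of the *Kcnq1* domain and 2 within 100 kb, among them *Meg3*, *Snhg18*, *Snhg12*, *Dnm3* and *Myc*. Over all genes, DESeq2 called 10 higher and 54 lower, limma-voom 0 and 0, a threshold of 0.05 0 and 0, and each fit without 1 library 0 and 0. At an unadjusted p under 0.05, 211 genes were higher and 365 lower by edgeR, none of them a member. Without 1 library in turn, log2 fold changes ranged from -0.023 to 0.31 for *Neat1*, -0.020 to 0.14 for *Gas5*, -2.67 to 1.14 for *Miat*, -0.061 to 0.72 for *Meg3*, -0.10 to 0.0033 for *Nolc1*, -0.053 to 0.072 for *Smarca4*, -0.0029 to 0.052 for *Srrm2*, -0.10 to 0.080 for *Son*, -0.025 to 0.18 for *Upf1*, -0.011 to 0.099 for *Smg5* and -0.019 to 0.10 for *Cd81*, each crossing 0. The other members kept their sign, with *Snhg1* between -1.04 and -0.22, *Dnm3os* between 0.18 and 0.64 and *Pvt1* between -0.30 and -0.062, while the members' median lay between -0.0217 and 0.475. *Phf2* was called by DESeq2 and under the block only, with an adjusted p between 0.773 and 1 without 1 library. *Son* was at 0.000182 with RLE. The median of the *Kcnq1* domain was -0.124 with DESeq2 and -0.133 with all genes of at least 1 count, where 15 genes were tested. Over the genomic span in place of exons, *Gas5* was at 67.0 and *Pvt1* at 0.0383 mean CPM per kb, which put *Pvt1* below *Snhg1*. Over its second longest transcript, an alternative chosen after seeing the data, *Neat1* was at 271 mean CPM per kb. Causes of these differences were not tested.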
